A study of Mus musculus with 6 samples.

Results

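Cholangiocytes are the epithelial cells that line the bile ducts of the liver. They were picked here from 6 single-cell libraries of dissociated mouse liver by their transcripts alone. A barcode was kept as a cell if it held at least 300 genes and no more than 20% of its unique molecular identifiers (UMIs) in mitochondrial genes. It was taken as a cholangiocyte if Epcam, Krt19, Krt7 and Sox9 together gave at least 3 UMIs, Pkhd1 and Erbb4 together at least 2, Msln no more than 1, Alb fewer than 100, and the T and B cell genes Cd3d, Cd3e, Cd3g and Cd79a together no more than 1. This gave 1978 cholangiocytes among 42682 cells kept, of 44656 barcodes. Since these genes chose the cells, their levels are given as a description and nothing is tested on them.

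The mice were 3 Stingfl/fl Cdh5-Cre+ animals, called knockout below, and 3 Stingfl/fl Cdh5-Cre- littermates, called control. All 6 were kept free of specific pathogens on chow until 8 weeks of age and then received a western diet with CCl4, a liver toxin, for 12 weeks, a regimen that brings on metabolic dysfunction-associated steatohepatitis (MASH). No untreated mice were analysed here, so every value below comes from an injured liver. The Cdh5 promoter drives Cre in endothelium. Cdh5 itself stood at 5.48 ± 3.22 CPM (UMIs scaled to a common library total of 1e6) in cholangiocytes (SD, n = 6 libraries), beside 387 ± 103 in cells picked by endothelial markers. Per the labels the cell type was liver sinusoidal endothelium, yet the libraries held many types.

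Bile leaves hepatocytes through canaliculi and runs into ducts, where cholangiocytes seal the lumen with tight junctions and adjust the fluid with channels, exchangers and bile acid carriers. Each cell bears a primary cilium that senses flow, and defects of ciliary proteins such as the Pkhd1 product, fibrocystin, cause cystic duct disease. In chronic injury the ducts multiply in a response called the ductular reaction, and their cells release cytokines and growth factors that act on inflammatory and matrix-making cells.

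The knockout libraries held 231, 146 and 408 cholangiocytes and the control libraries 79, 687 and 427. Their summed depth ran from 2759469 to 7838009 UMIs in knockouts and from 1280014 to 8942323 in controls, so control 1 gave the shallowest sum. A cholangiocyte carried a median of 12823 to 15496 UMIs in knockout libraries and 10345 to 15341 in control libraries. Pairs of libraries shared 5 to 25 barcodes, 0.328% of the smaller library at most, and 1 shared barcode was a cholangiocyte in both libraries of a pair. At the edge of the rule, 29 cells had a sum of Epcam, Krt19, Krt7 and Sox9 of 3 and 34 barcodes missed it with 2, while 39 cells had a Pkhd1 and Erbb4 sum of 2 and 31 missed it with 1.

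The label was checked on Spp1. Spp1, which encodes osteopontin and which the rule did not use, gave 11210, 9031 and 12379 CPM in knockout cholangiocytes and 10413, 10951 and 10524 CPM in control cholangiocytes. It averaged 20.8 ± 13.3 CPM in mesothelial cells of the same 6 libraries, the other epithelium found here. Every cholangiocyte sum was thus far above every mesothelial sum. Epcam averaged 722 ± 78.0 CPM in cholangiocytes and 1.95 ± 0.711 in mesothelial cells, and Pkhd1 1320 ± 116 and 0.823 ± 0.396 CPM. The mesothelial rule capped both genes, so these gaps were set by the rules and do not check the label. The keratins of the rule were also read in mesothelial cells, at higher levels: Krt19 gave 268 ± 64.2 CPM in cholangiocytes and 385 ± 87.2 in mesothelial cells, and Krt7 88.0 ± 13.5 and 235 ± 42.5 CPM.

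The mesothelial cells, 2392 in number, line the liver's outer surface and were picked by Msln with Upk3b, Upk1b, Lrrn4 and Gpm6a. Their rule also capped Epcam, Pkhd1 with Erbb4, Alb, and the T and B cell genes. A rule for hepatocytes (at least 100 Alb UMIs with at least 10 from Cps1, Cyp2e1 and Apob, and few biliary transcripts) found 7 cells, 5 of them in knockout 1 and 2 in knockout 2. These are too few for a test, so hepatocyte values are given as a sum of 208495 UMIs with 95% exact Poisson intervals that cover counting error only.

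Albumin is the main product of hepatocytes, and its gene (chromosome 5, 90460897 to 90476602, plus strand, GRCm38) was also read in nearly every cholangiocyte. It gave 1767, 2004 and 1863 CPM in knockout cholangiocytes and 1958, 2021 and 1766 CPM in control cholangiocytes, while the 7 hepatocytes gave 35607.6 CPM (34802.1 to 36426.9). Mesothelial cells gave 5.40 ± 2.78 CPM. The rule caps Alb at under 100 UMIs a cell, and 326 more barcodes met every other term. These were deep, with library medians of 40126 to 52033 UMIs beside 10345 to 15496 in cholangiocytes, so the cap also removed deep barcodes. With these added the sums ran from 2032 to 2819 CPM in knockouts and from 2092 to 2532 CPM in controls. With each cell thinned to 3000 UMIs, a median of 94.2% of cholangiocytes had an Alb UMI, beside 1.19% of mesothelial cells and 0.833% of lymphocytes. Without thinning the shares were 98.1%, 7.87% and 2.55%.

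Plasma protein genes that the rule did not use were split. Ttr, Ambp and Ahsg were read in many cholangiocytes. After thinning, so were Apoc1 (a median of 63.1%) and Rbp4 (41.4%). In contrast, Apoa1 (2.08%), Apoa2 (1.7%), Fgb (4.21%) and Hp (3.49%) were read in few. Ttr, the carrier of thyroid hormone, averaged 1235 ± 183 CPM in cholangiocytes and 1.62 ± 0.693 CPM in mesothelial cells. Ambp, which encodes alpha-1-microglobulin and bikunin, averaged 632 ± 76.0 and 0.672 ± 0.498 CPM. Ahsg, which encodes fetuin-A, averaged 779 ± 311 and 1.12 ± 0.361 CPM. After thinning, Ambp was read in a median of 80.5% of cholangiocytes, Ttr in 91.1% and Ahsg in 51.3%, against 0.667% or less of mesothelial cells and 0.5% or less of lymphocytes for each gene. The level of free RNA was not measured. Unthinned, Ambp was read in 98.2% of cholangiocytes, Ttr in 98.9% and Ahsg in 67.0%.

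Ratios among liver transcripts are given for cholangiocytes and for the 7 hepatocytes. For each 100 Alb UMIs, cholangiocytes held 0.879 UMIs of Apoa1, the main protein of high-density lipoprotein, and hepatocytes 42.9. The same ratio was 29.9 in mesothelial cells and 29.3 in lymphocytes, where liver transcripts were near the floor. Cps1, the entry enzyme of the urea cycle, gave 0.0112 UMIs per 100 Alb UMIs in cholangiocytes (7 UMIs in all) and 3.81 in hepatocytes. Its ratio was 1.92 in mesothelial cells (5 UMIs) and 2.77 in lymphocytes (14 UMIs). Ambp went the other way, with 33.8 in cholangiocytes, 3.60 in hepatocytes, 12.6 in mesothelial cells and 16.4 in lymphocytes. So did Hnf4a, a liver transcription factor, with 3.48, 0.579, 2.68 and 2.18 in the same order. With UMIs summed over all libraries, both were lower in cholangiocytes than in hepatocytes. Ambp stood at 639 and 1281 CPM, and Hnf4a at 65.9 and 206 CPM. Alb is a gene of the rule, which caps it, and Alb and Cps1 helped to pick the hepatocytes, so these ratios are a description. Without the cap, an alternative added after the data were seen, cholangiocytes held 1.36 UMIs of Apoa1 and 0.0130 of Cps1 per 100 Alb UMIs. The part of hepatocyte RNA in the cholangiocyte counts was not tested.

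Promoters of genes high in cholangiocytes were searched for the letters GTTAATNAT on either strand, the core of an element known from the albumin promoter. The RefSeq promoters (GRCm38.p6) were read over the 250 bases before the start. Of 313 promoters of genes at least 32-fold higher in cholangiocytes than in mesothelial cells, 13 (4.15%) held the letters, against 56 of 10516 (0.533%) for all genes tested and 1 of 215 (0.465%) for genes at least 32-fold lower. Over all 27025 genes of the table the share was 0.866%. The 13 were Habp2, Tm4sf4, Slc10a2, Fga, Nr5a2, Cltrn, Pcbd1, Gc, C4bp, 1700110K17Rik, Pzp, Smim6 and Mcf2l. The motif was chosen after these genes had been seen, and a match of letters is no evidence of binding.

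The last 150 bases before the start are shown for Alb (chr5:90460720-90460869, plus strand), for the marker Pkhd1 (chr1:20618058-20618207, minus strand) and for Tm4sf4 (chr3:57425260-57425409, plus strand), each 5′ to 3′ along the gene, with the match in capitals. It begins 32 bases before the start in Alb and 79 in Pkhd1.
Alb: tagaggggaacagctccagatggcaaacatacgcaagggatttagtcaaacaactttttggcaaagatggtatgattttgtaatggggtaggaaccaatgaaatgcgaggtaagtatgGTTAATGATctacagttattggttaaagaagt
Pkhd1: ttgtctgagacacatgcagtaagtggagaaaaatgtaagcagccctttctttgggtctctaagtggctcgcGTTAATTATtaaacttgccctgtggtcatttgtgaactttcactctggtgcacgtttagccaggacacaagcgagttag
Tm4sf4: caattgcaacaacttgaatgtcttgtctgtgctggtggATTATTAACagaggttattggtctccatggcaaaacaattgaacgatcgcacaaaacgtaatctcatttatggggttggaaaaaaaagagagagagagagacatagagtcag

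The same 6 mice gave both epithelia, so cholangiocytes were compared with mesothelial cells within libraries (edgeR quasi-likelihood test, library as block, Benjamini-Hochberg adjustment). Of 13528 genes outside the rules, 9340 (69.0%) passed an adjusted p of 0.05, with 4687 (34.6%) higher and 4653 (34.4%) lower in cholangiocytes. Both classes were picked by marker genes read in the same cells, so genes that go with those markers had to differ, and the test describes the classes as picked. Among genes of at least 6 on the log2 CPM scale, the 10 with the largest difference upward included Cldn7, Onecut2, Ehf, Pik3c2g, Ambp, Kcnma1, Cldn4, Tm4sf4 and Kcnip4, at log2 fold changes of 10.57 (SE 0.176) down to 9.68 (SE 0.168). The 5 furthest downward were Anxa8 at -9.67 (SE 0.209), Sh3rf2, Myl7, Angptl7 and Rspo1 at -8.75 (SE 0.224). Adjusted p for these 15 genes was 5.05e-08 or less by edgeR.

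Of 30 biliary genes outside the rule, 26 were higher and 2 lower in cholangiocytes, beside 34.6% higher and 34.4% lower over all genes. Their median log2 fold change was 6.27, beside a median near 0 over all genes tested. Onecut1, known as hepatocyte nuclear factor 6, had 829 UMIs in cholangiocytes and none in mesothelial cells, which makes it at least 432-fold higher when 3 UMIs over the mesothelial group are taken as the limit. Onecut2 gave 305 ± 20.2 CPM in cholangiocytes and 0.247 ± 0.162 CPM in mesothelial cells, and Ehf, an epithelial ETS factor, 282 ± 41.9 and 0.225 ± 0.246 CPM. Glis3, another factor tied to cystic disease, was at 983 ± 116 and 26.9 ± 5.07 CPM. Bicc1, an RNA-binding protein of ciliated ducts, gave 1359 ± 86.6 and 1360 ± 187 CPM and did not pass (adjusted p = 0.547, edgeR).

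Junction genes separated the epithelia as well. Of 29 tested, 24 were higher and 3 lower in cholangiocytes, beside 34.6% higher and 34.4% lower over all genes. The tight junction genes Cldn7, at 209 ± 15.0 and 0.112 ± 0.0905 CPM, and Cldn4, at 265 ± 39.8 and 0.308 ± 0.301 CPM, were barely read in mesothelial cells, and occludin, Ocln, gave 252 ± 16.8 and 0.700 ± 0.559 CPM. E-cadherin, Cdh1, was at 889 ± 82.7 and 3.32 ± 1.54 CPM. Cldn15 and Cldn10 were lower in cholangiocytes, at log2 fold changes of -7.37 and -2.62 (adjusted p of 3.59e-11 and 9.89e-07, edgeR), as was the polarity gene Mpp5 at -0.53.

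Of 21 transport and secretion genes, 14 were higher and 3 lower in cholangiocytes, beside 34.6% higher and 34.4% lower over all genes. The secretin receptor Sctr, which starts ductal bicarbonate secretion, had 789 UMIs in cholangiocytes and 2 in mesothelial cells. The ileal-type bile acid carrier Slc10a2 had 538 and 1. The glucose carrier Slc5a1 averaged 156 ± 18.9 and 0.303 ± 0.273 CPM. These 3 were barely read in mesothelial cells. The chloride channel Cftr gave 67.8 ± 13.8 and 33.0 ± 7.55 CPM, a log2 fold change of 0.99 (SE 0.163). Ano1, a calcium-gated chloride channel, was lower in cholangiocytes at 85.6 ± 10.3 and 165 ± 9.66 CPM, and the water channel Aqp1 far lower at 8.95 ± 4.41 and 538 ± 93.3 CPM.

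**Figure D1:**
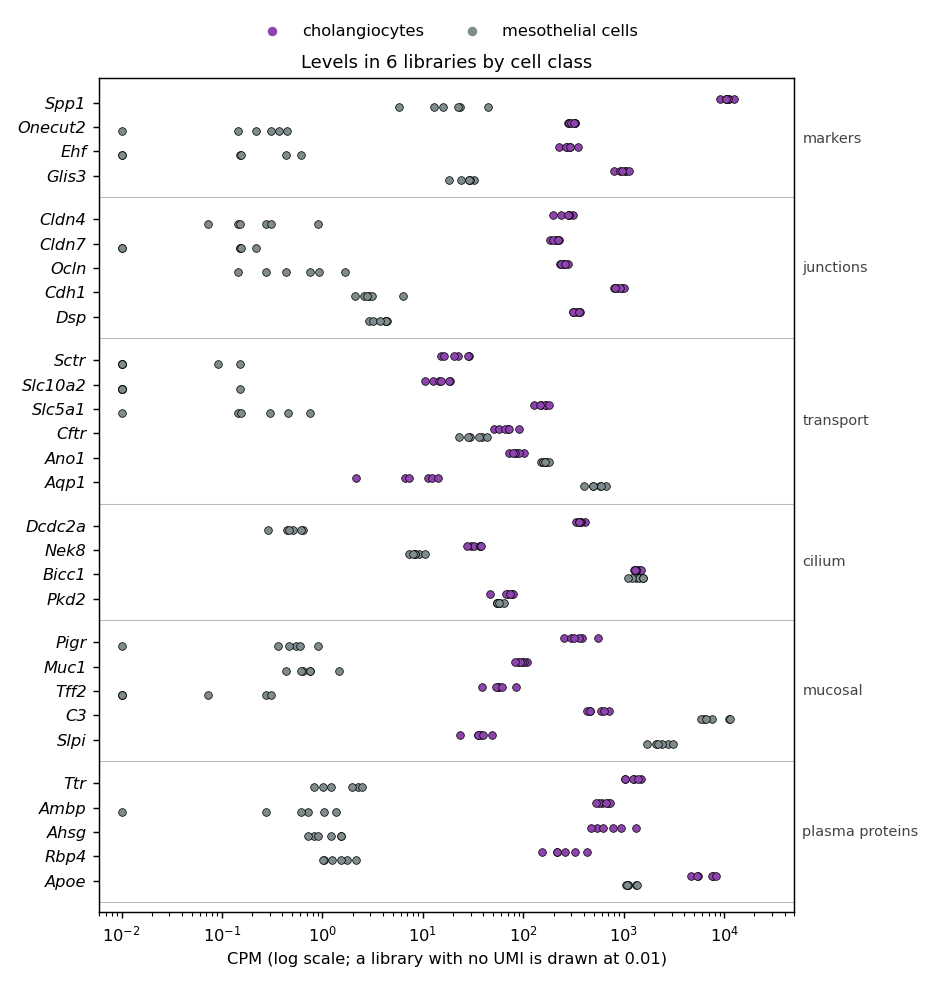
CPM of named genes (log scale, 1 point per library, 6 libraries) in cholangiocytes and in mesothelial cells, grouped by role; a library with no UMI is drawn at 0.01. Onecut2, Cldn7 and Ttr lie far apart in the classes, Bicc1 overlaps, and C3, Slpi and Aqp1 are lower in cholangiocytes.

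Cilium genes were called higher about as often as all genes. Of 27 tested, 10 were higher and 5 lower in cholangiocytes, beside 34.6% higher and 34.4% lower over all genes, with a median log2 fold change of 0.19. Dcdc2a, a ciliary gene mutated in neonatal sclerosing cholangitis, was at 366 ± 25.8 and 0.493 ± 0.126 CPM, and Nek8 at a log2 fold change of 1.93. The polycystin genes did not follow: Pkd1 was lower at -0.73 and Pkd2 missed the threshold at 0.24 (adjusted p = 0.0548, edgeR).

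Of 16 mucosal defence genes, 6 were higher and 8 lower in cholangiocytes, beside 34.6% and 34.4% over all genes. Their median log2 fold change was -0.50. Pigr, which carries IgA across the duct wall, was at 362 ± 104 CPM and 0.481 ± 0.300 CPM. Muc1, a surface mucin, was at 95.3 ± 9.22 and 0.774 ± 0.351 CPM, and the trefoil factor Tff2 at 58.8 ± 14.8 and 0.108 ± 0.143 CPM. Complement C3, at 550 ± 118 and 8186 ± 2518 CPM, and the protease inhibitor Slpi, at 36.6 ± 8.11 and 2383 ± 500 CPM, were lower in cholangiocytes. The secreted mucin gene Muc5b and the antimicrobial genes Reg3b and Reg3g had no UMI in any cholangiocyte sum.

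Genes of regeneration and of signals from injured ducts were more often higher than lower in cholangiocytes. Over all genes tested, 34.6% were higher and 34.4% lower. Of 20 progenitor and regeneration genes, 18 were higher and 2 (Axin2 and Egfr) lower. Fgfr3 averaged 365 ± 41.8 and 3.45 ± 1.47 CPM, and Tnfrsf12a, the receptor through which TWEAK expands ducts, 316 ± 46.8 and 9.81 ± 3.99 CPM. Of 17 Notch genes, 12 were higher and 3 lower: the ligand Jag1 was at 97.9 ± 17.1 and 16.6 ± 4.22 CPM, and the target Hes1 at 803 ± 215 and 52.7 ± 27.1 CPM. Of 26 cytokine and growth factor genes, 15 were higher and 9 lower. Hbegf gave 1514 ± 95.1 and 171 ± 26.2 CPM, Vegfa 281 ± 54.3 and 38.1 ± 8.22 CPM, Pdgfb 58.2 ± 9.26 and 1.93 ± 0.762 CPM, and Lif 18.3 ± 4.95 and 1.88 ± 0.558 CPM. The alarmin Il33 was lower at a log2 fold change of -3.92. The YAP target Ankrd1 was at 450 ± 67.4 and 0.566 ± 0.640 CPM.

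Knockout and control mice were first compared by the cholangiocytes recovered, which made up 3.20%, 2.24% and 5.78% of cells in knockout libraries and 0.983%, 7.62% and 8.78% in control libraries. The means were 3.74% ± 1.83 and 5.80% ± 4.21 (SD, n = 3 each). Control 1 lay below every knockout library and the other controls above, so the groups overlapped. An exact two-sided permutation test gave p = 0.5, where 0.1 is the smallest that 3 against 3 mice allow. A share of recovered cells depends on how well ducts come apart during dissociation and need not give the number of ducts in the liver.

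**Figure D2:**
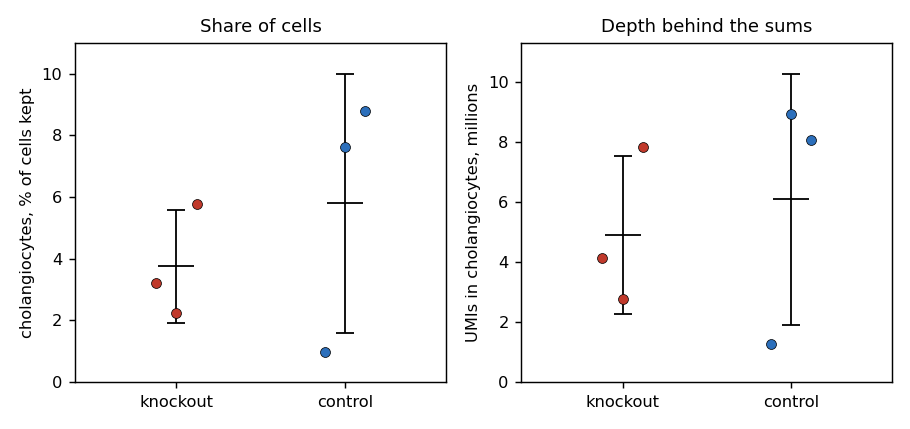
Cholangiocytes as a percentage of cells kept (left) and the UMIs summed over them (right), 1 point per library, with the mean and SD of 3 knockout and 3 control libraries. Control 1 has the lowest value in both panels.

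Sting1, the gene targeted in endothelium, was read at 21.4, 21.98 and 16.0 CPM in knockout cholangiocytes and at 16.1, 17.4 and 15.2 CPM in control cholangiocytes. The groups overlapped (log2 fold change 0.26, SE 0.181, adjusted p = 0.908, edgeR). In cells picked by endothelial markers it averaged 18.2 ± 3.43 CPM in knockouts and 22.2 ± 3.63 CPM in controls. These endothelial-marker cells also gave 453 ± 143 and 458 ± 120 CPM of the leukocyte gene Ptprc, so they were not endothelium alone. The labels do not say which exons were floxed, so reads from the gene's end need not follow the deletion.

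Between genotypes no gene of cholangiocytes passed edgeR's test, and 3 passed that of DESeq2. By edgeR's quasi-likelihood test on the sums of 3 knockout and 3 control libraries, 0 of 13111 genes passed an adjusted p of 0.05 (0%), with 678 at an unadjusted p under 0.05, 342 higher and 336 lower in knockouts. By the Wald test of DESeq2, 3 of 21736 passed (0.0138%), of which 1 was higher (0.00460%) and 2 lower (0.00920%), and 435 had an unadjusted p under 0.05. Without a filter on low counts edgeR called 12 of 21767 (0.0551%), of which 3 were higher (0.0138%) and 9 lower (0.0413%). Without control 2 it called 2 genes, Cxcl10 and Gm16685, both lower. The groups did not overlap in 1477 genes (11.3%), 764 of them higher (5.83%) and 713 lower (5.44%).

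Cxcl10, the interferon-inducible chemokine that draws CXCR3-bearing T cells (chromosome 5, 92346638 to 92348889, minus strand), had the smallest p of all genes. It gave 57.4, 46.1 and 56.9 CPM in knockout cholangiocytes and 114, 83.0 and 113 CPM in control cholangiocytes. All 3 knockout values lay below all 3 control values, at a log2 fold change of -0.92 (SE 0.149), and the adjusted p was 0.513 by edgeR. DESeq2 called it lower with an adjusted p of 0.00116. Over the edgeR alternatives its log2 fold change ran from -1.08 to -0.77, and it passed an adjusted p of 0.05 without control 2 (0.049), with the replicate number as a block (0.0341) and without the low-count filter (1.12e-05), while the highest adjusted p was 1. In mesothelial cells Cxcl10 gave 80.2, 121 and 122 CPM in knockouts and 104, 194 and 210 CPM in controls. There the groups overlapped, and the difference between both effects did not pass (log2 -0.25, SE 0.374, adjusted p = 0.998, edgeR). After thinning Cxcl10 was read in a median of 13.5% of cholangiocytes, 23.7% of mesothelial cells and 11.7% of lymphocytes, and the part of free RNA in its counts was not tested. The unthinned shares were 34.4%, 53.7% and 18.1%.

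Interferon-stimulated genes as a list gave no call. Of 32 tested, 11 were higher and 21 lower in knockouts, 0 passed, and the median log2 fold change was -0.08, beside 0.00 over all genes. Ifih1 and Ifi44 had unadjusted p under 0.05, at log2 fold changes of -0.31 (SE 0.124) and -0.51 (SE 0.228). Isg15 gave 56.9, 21.3 and 58.8 CPM in knockouts and 27.4, 47.8 and 52.2 CPM in controls, and Ifit1 20.4, 7.93 and 16.0 against 13.7, 25.6 and 24.7 CPM, so both overlapped. Of 13 STING pathway genes, 6 were higher and 7 lower, none past the threshold by edgeR. Of 21 NF-kB genes 3 were higher and 18 lower, with a median of -0.23. Nfkb1 lay at 238, 358 and 285 CPM in knockouts and 413, 390 and 370 CPM in controls without overlap (adjusted p = 0.908, edgeR).

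No gene of the ductular reaction passed the test by edgeR. Of 26 cytokine and growth factor genes, 7 were higher and 19 lower in knockouts, with a median log2 fold change of -0.25. Vegfa gave 214, 277 and 236 CPM in knockouts and 283, 367 and 310 CPM in controls. Of 20 YAP targets, 4 were higher and 16 lower. Ccn2, a matricellular growth factor that YAP induces, gave 168, 186 and 141 CPM in knockouts and 262, 269 and 223 CPM in controls (log2 fold change -0.61, SE 0.132). Of 20 Notch genes, 5 were higher and 15 lower, and Jag1 gave 86.0, 89.0 and 81.0 CPM in knockouts and 95.1, 126 and 110 CPM in controls. Vegfa, Ccn2 and Jag1 did not overlap between groups, a state that 11.3% of all genes share, and the adjusted p of each was 0.908 by edgeR.

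No gene of the unfolded protein response passed by edgeR. Of 21 genes of the unfolded protein response, 5 were higher and 16 lower in knockouts, and 5 of 21 did not overlap between groups, beside 11.3% of all genes. Hspa5, which encodes the chaperone BiP, gave 821, 910 and 1579 CPM in knockouts and 1872, 2433 and 1666 CPM in controls (log2 fold change -0.85, SE 0.266). Hsp90b1 gave 296, 278 and 326 CPM in knockouts and 352, 469 and 403 CPM in controls. Manf and Herpud1 lay at log2 fold changes of -0.37 (SE 0.127) and -0.25 (SE 0.109). All of these had an adjusted p of 0.908 by edgeR.

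Of the genes higher in knockouts by smallest p, Ahsg came before the rest. It gave 1317, 939 and 775 CPM in knockout cholangiocytes and 546, 477 and 621 CPM in control cholangiocytes, a log2 fold change of 0.88 (SE 0.186) with an adjusted p of 0.908 by edgeR, and DESeq2 called it. Groups did not overlap. Alb, Ttr and Ambp did overlap between groups. Of 21 genes of the hepatocyte list outside the rule, 16 were higher and 5 lower in knockouts, with Apoc1 among the lower at 551, 483 and 521 CPM in knockouts and 726, 599 and 654 CPM in controls. Their summed level was 9042 to 13113 CPM in knockouts and 8420 to 12229 CPM in controls.

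Other genes higher in knockouts by the same ranking were Degs2, Id2, Megf6, Gatd3a, Gsta3 and Pxmp2. Id2, a repressor of helix-loop-helix factors, gave 1690, 1546 and 1453 CPM in knockouts and 1148, 1184 and 1126 CPM in controls. Gsta3, a glutathione transferase, gave 297, 217 and 211 CPM in knockouts and 158, 124 and 177 CPM in controls. Lower genes after Cxcl10 by that ranking were Gm16685, Gm10076, Ccn2, Smim3, Dbi and Lrmda, and DESeq2 called Gm16685, at 13.8, 22.7 and 21.2 CPM in knockouts and 72.5, 37.5 and 54.6 CPM in controls. Gm16685 is annotated as an antisense transcript (chromosome 3, 7612705 to 7690001, plus strand), and Gm10076 resembles other ribosomal gene copies, so its reads may be shared. None of these genes passed by edgeR, each with an adjusted p of 0.908.

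**Figure D3:**
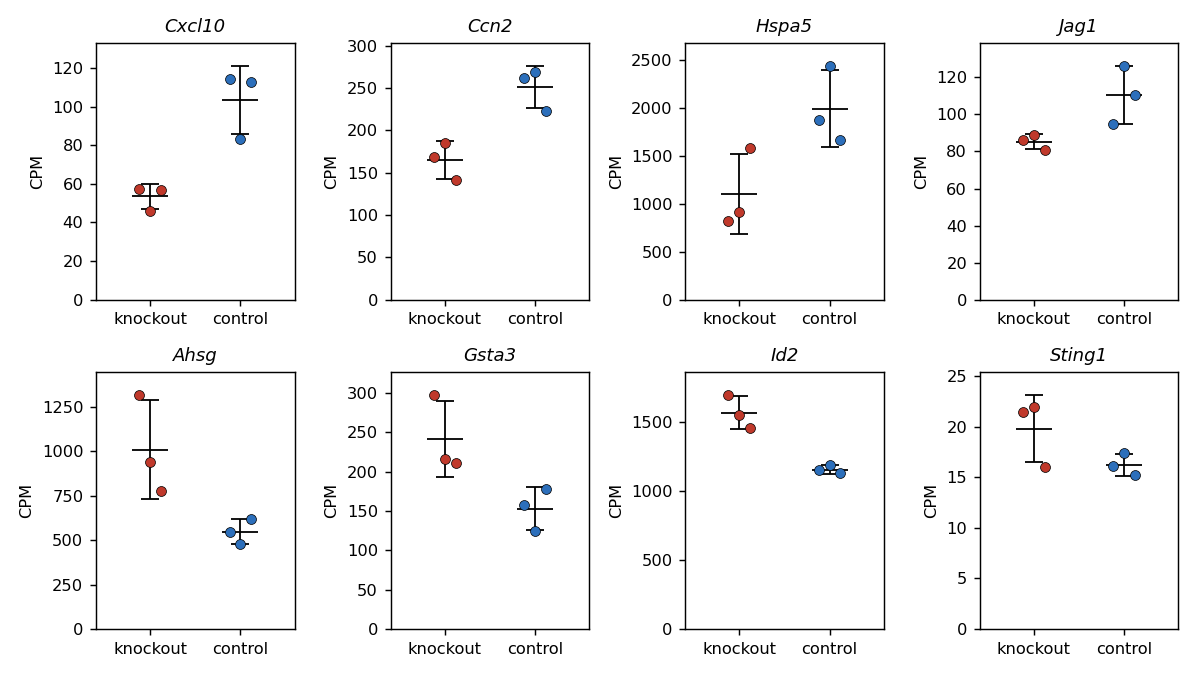
CPM of 8 genes in cholangiocyte sums, 1 point per library, with mean and SD of 3 knockout and 3 control libraries; each axis starts at 0. The upper 4 genes are lower in knockouts without overlap, Ahsg, Gsta3 and Id2 are higher without overlap, and Sting1 overlaps.

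Genes that define the ducts were split in direction between genotypes. Of 30 biliary genes, 17 were higher and 13 lower in knockouts, with log2 fold changes between -0.30 and 0.31. Junction genes numbered 15 higher and 13 lower of 28 (log2 -0.44 to 0.32). Cilium genes numbered 15 and 12 of 27 (-0.37 to 0.37), and transport genes 12 and 9 of 21 (-0.99 to 0.72). None of these lists had a member past the threshold by edgeR. A p that misses the threshold does not show that levels are equal.

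Cell cycle genes were read at low levels. Of 19 tested, 16 were higher and 3 lower in knockouts, with a median log2 fold change of 0.24. Cdk1 gave 4.19, 3.24 and 4.09 CPM in knockouts and 0, 0.871 and 1.50 CPM in controls, and Mki67 11.8, 1.08 and 5.37 against 3.22, 2.07 and 1.12 CPM. None passed by edgeR. Control 1, with 79 cells, had no Cdk1 UMI.

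**Figure D4:**
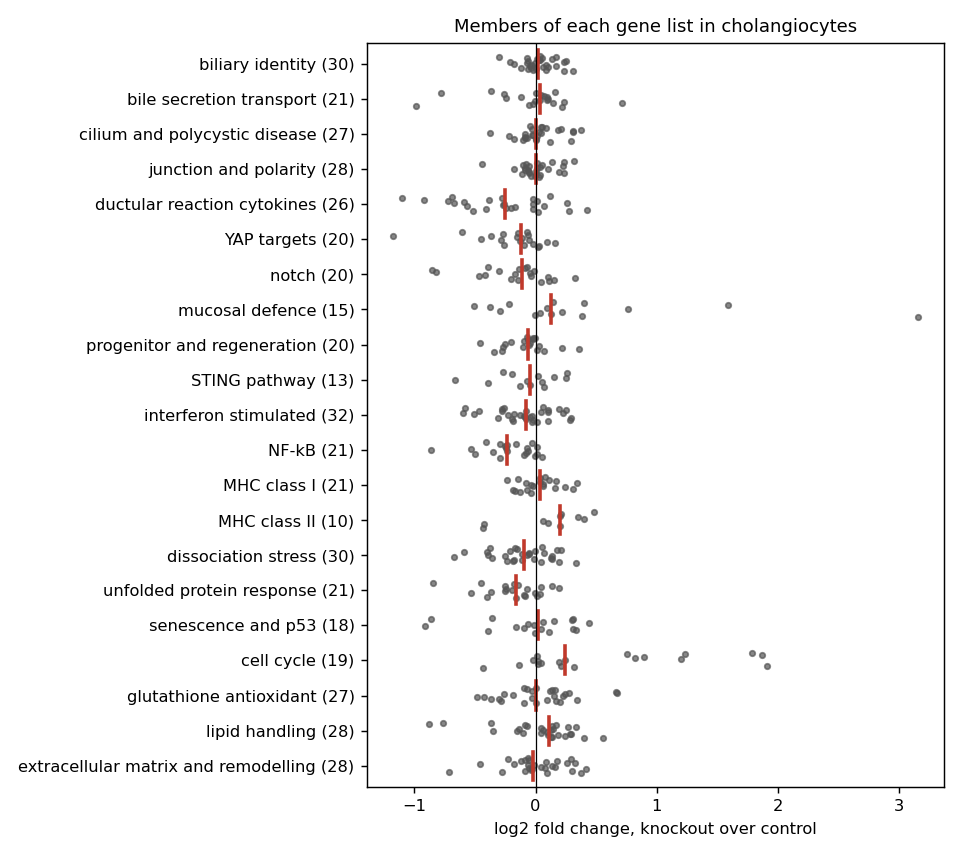
log2 fold change of knockout over control in cholangiocytes for each tested member of 21 gene lists (points) with the list median (red line) and the number tested in brackets. Duct identity, junction and cilium lists centre on 0, and cytokine, NF-kB and unfolded protein response lists lie to the left.

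Transcripts of other cells also differed between libraries. The summed level of 14 myeloid markers was 120 to 3069 CPM in knockouts and 70.1 to 407 CPM in controls. Knockout 1 alone held 1185 CPM of S100a8 and 1603 CPM of S100a9, both neutrophil genes, whereas knockouts 2 and 3 held 3.60 and 1.15 CPM of S100a8 and controls 0.806, 2.83 and 110 CPM. The 14 endothelial markers summed to 53.0 to 149 CPM in knockouts and 143 to 197 CPM in controls. Of 11 tested, 2 were higher and 9 lower in knockouts, with Pecam1 at 42.6, 26.7 and 42.0 CPM in knockouts and 72.5, 48.3 and 56.0 CPM in controls. Stellate cell and fibroblast markers ran from 218 to 314 and from 201 to 507 CPM. The part of these transcripts in the genotype values above was not tested.

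Whether the genotype difference itself differed between cholangiocytes and mesothelial cells was tested as an interaction, with library as block. By edgeR 0 of 14489 genes passed (0%), with 665 at an unadjusted p under 0.05, and DESeq2 called 1, Id2. Without the filter on low counts edgeR called 158, 76 above 0 and 82 below it. Without control 2 it called 9, and without control 1 it called 4. The values of Id2 in cholangiocytes are given above, and mesothelial cells had 669, 488 and 449 CPM in knockouts and 671, 754 and 651 CPM in controls, a difference of log2 0.82 (SE 0.140, adjusted p = 0.390, edgeR). Lrmda went the other way, at 20.2, 27.4 and 25.3 CPM in knockout and 50.8, 32.8 and 38.9 CPM in control cholangiocytes, against 284, 352 and 340 CPM in knockout and 262, 265 and 274 CPM in control mesothelial cells (log2 -0.97, SE 0.169, adjusted p = 0.390, edgeR). The lowest p of all belonged to S100a8, whose level in cholangiocytes rests on knockout 1. The others of smallest p were Faah, S100a9 and Chil3 above 0, and Car2, Fbln5, Cacnb2 and Serpina3n below it. Without cells holding a Ptprc UMI or at least 20 Alb UMIs the sign turned for S100a8 (log2 -0.61) and S100a9 (-1.26). That limit left 733 of 1978 cholangiocytes, as 1169 held at least 20 Alb UMIs. The sign of Chil3 turned under DESeq2 (-0.40) and without knockout 1 (-1.48).

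Cholangiocytes also differed among themselves. Each cell was thinned to 3000 UMIs, which left out 3 cells in each knockout library and 7, 46 and 4 in the control libraries. Over 1111 genes with a mean of at least 0.5 UMIs, the variance over the mean had a median of 1.27 across libraries, where pure counting would give 1. The 10 genes furthest above were Igkc, Msmp, Malat1, Apoe, Spp1, H3f3b, Fos, Cd74, Hspa1a and Tmsb4x. Igkc, an antibody light chain, is a B cell gene, and Fos and Hspa1a respond to handling and heat. Cd74, of antigen presentation, was read in a median of 28.8% of thinned cholangiocytes, 60.7% of mesothelial cells and 45.5% of lymphocytes. The source of the Igkc and Cd74 reads was not tested.

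Msmp, a small secreted protein, was the gene read in the most uneven way among those with a mean over 1 UMI, at a median variance over mean of 17.8 (4.39 to 36.9 over libraries). It was read in 25.4%, 19.6% and 23.7% of thinned cells in knockouts and in 5.56%, 24.0% and 24.8% in controls. The 10% of cells with most Msmp held 80.3% to 100% of its UMIs, and a single cell held up to 102. It was read in 0.167% of mesothelial cells and 0% of lymphocytes as a median over libraries. Spp1 and Apoe were the reverse, read in at least 98.6% of cells in every library, with 18.9% to 21.7% of Spp1 UMIs in the top 10% of cells.

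Ahsg was patchy in all 6 mice. It was read in 64.5%, 54.5% and 57.0% of thinned knockout cells and in 34.7%, 47.6% and 48.0% of thinned control cells, and its top 10% of cells held 37.1% to 60.6% of its UMIs. Across cells within a library, its level went most with Rbp4 (median r = 0.326 over 6 libraries, 0.268 to 0.534), Agt (0.316), Gc (0.311), Trf (0.305) and Nrn1 (0.277) among 2071 genes compared. The first 4 encode plasma proteins. It went most against Anxa3 (-0.237), Igf1r (-0.197), Sema3c (-0.195), Kifc3 (-0.186) and Cldn4 (-0.185, -0.334 to -0.038). These correlations are across cells that share a library and its depth of 3000 UMIs, and they are weak.

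**Figure D5:**
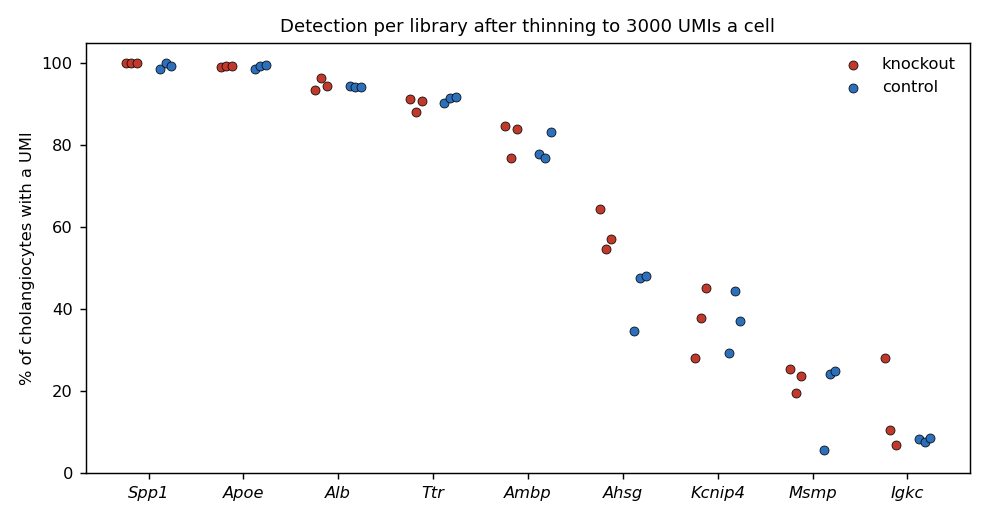
Percentage of cholangiocytes with at least 1 UMI of each gene after thinning to 3000 UMIs a cell, 1 point per library. Spp1, Apoe and Alb are read in nearly all cells, Ahsg in 34.7% to 64.5%, and Msmp, Kcnip4 and Igkc in a minority.

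Among the pairs compared, Fos and Atf3, immediate early genes, had the highest median r of 0.721 (0.588 to 0.749). Krt8 and Atf3 had 0.614 (0.567 to 0.709), H3f3b and Atf3 0.565 (0.517 to 0.620), H3f3b and Fos 0.512 (0.381 to 0.604), and H3f3b and Krt8 0.499 (0.453 to 0.622). Krt8 and Krt18, keratin partners, had 0.495 (0.464 to 0.538), and Apoe and Spp1 0.511 (0.430 to 0.569). Immediate early genes rise during dissociation, and their part in the links was not tested.

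For a few injury genes, chosen here after their values were seen, mice of 1 genotype lay far apart. Tmem45a gave 30.1, 158 and 49.2 CPM in knockouts and 216, 45.6 and 39.0 CPM in controls. Lcn2, an iron-binding acute-phase protein, gave 714, 396 and 256 CPM in knockouts and 165, 149 and 481 CPM in controls. Haptoglobin, Hp, gave 132, 8.65 and 23.5 CPM in knockouts and 161, 12.6 and 30.5 CPM in controls, and Mmp7, a matrix protease, 155, 68.1 and 90.7 against 16.1, 77.3 and 121 CPM. In each of these the groups overlapped, and the highest library exceeded the lowest of its own group by more than the group means differed.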

How the data were processed

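The deposited files hold raw UMI counts per gene and barcode in 10x format, made by the authors with Cell Ranger 7.1.0 on mm10, with Seurat 4.1.1 also named, per the submitters' processing notes. The annotation release is not given in the sources used here. Of 31253 gene identifiers, 31107 matched GENCODE M21 (GRCm38), which gave coordinates. Counts of the picked cells were summed per library and tested with edgeR 4.0.16 (R 4.3.3; TMM, filterByExpr, robust quasi-likelihood), with DESeq2 1.42.0 as an alternative. CPM are counts over the TMM-scaled library. All p-values measure the spread between mice. Deviations of same-numbered libraries from their group means correlated at -0.26, 0.28 and -0.15, and so few libraries cannot show whether the mice were paired. Doublets were scored by Scrublet (60 cholangiocytes over 0.25) and kept.

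Members, gene lists and tests were chosen with earlier results of these data known. Named genes are Sting1, up to 8 each way by p with a log2 CPM of at least 4, list members of smallest p or highest CPM, 10 higher and 5 lower by fold between classes, 5 each way for the interaction, and the 10 most variable; further list members and the genes of the per-cell and promoter accounts were chosen after their values were seen. Results for a few genes the rule names are not reported here. The planned hepatocyte test could not be run with 7 cells. The fits were tested on data simulated from edgeR's own fitted model, with genes changed by log2 1 or 2. Only genes with a mean of at least 10 UMIs per library sum were changed, so the recovery does not cover genes of lower counts. The genotype fit recovered 73.7% and 88.5% of the changed genes (73 and 85 genes), with 19 false calls among unchanged genes. The class fit recovered 86.9% and 95.9%, with 18 false calls. The interaction fit recovered 59% and 79%, with 14 false calls.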

Additional observations from a re-analysis of the deposited data

Results flagged for a closer look

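Among 61 values over the 6 cholangiocyte sums (the share of cells and the genes named between classes or in the interaction), 6 were flagged. In these, a library's gap to its nearest neighbour took up more of the range than Dixon's 95% critical value for 6 samples. Chance alone gives about 1 in 20 for values not picked from the same data. The interaction genes S100a8, S100a9, Chil3 and Serpina3n were picked by p from these same sums, so the number flagged cannot be set against chance. Knockout 1 stood apart in 3 of the 6 flagged values, all neutrophil or myeloid genes. S100a8 gave 1185 CPM there beside 0.806 to 110 in the other libraries. S100a9 gave 1603 CPM beside 1.79 to 170, and Chil3 136.7 CPM beside 0 to 2.37. Control 2 stood apart for Pdgfb at 76.06 CPM beside 49.3 to 57.2, and for Angptl7 at 0.9794 CPM beside 0 to 0.360. Control 3 stood apart for Serpina3n at 4.124 CPM beside 0.739 to 1.20.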

How the results depend on the processing

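In the genotype contrast, DESeq2 called 3 genes (1 higher, Ahsg, and 2 lower, Cxcl10 and Gm16685), no filter on low counts 12 (3 higher, 9 lower), and leaving out each library in turn 0 to 2 (0 higher, 0 to 2 lower), the 2 being Cxcl10 and Gm16685 without control 2. With the replicate block edgeR called 1 (Cxcl10, lower, adjusted p = 0.0341). Deviations of same-numbered libraries from their group means correlated at -0.26, 0.28 and -0.15. So few libraries cannot show whether the numbers pair the samples. Other alternatives called 0. In the interaction DESeq2 called 1 gene (1 higher, 0 lower), no filter 158 (76 higher, 82 lower), and leave-one-out runs 0 to 9 (0 to 3 higher, 0 to 7 lower), 9 without control 2 and 4 without control 1. Direction turned for Il34 without cells holding Ptprc or at least 20 Alb UMIs (0.12), for S100a8 (-0.61) and S100a9 (-1.26) under the same limit, and for Chil3 under DESeq2 (-0.40) and without knockout 1 (-1.48, the lowest of its leave-one-out values, which reached 3.62 without control 2). The limit on Ptprc and Alb UMIs left 733 of 1978 cholangiocytes. Class calls ranged from 7527 to 10781 and all 50 named genes kept direction and side. The log2 ratio of cell shares ran from -1.13 to -0.10 and never passed. The causes were not tested. Alternatives of the hepatocyte comparison were not run, for want of cells. The 79 cells of control 1 limit the low-count genes there.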
